A study of Mus musculus with 16 samples.

Results

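The BCL-2 family of cell death regulators was followed here through Bcl2l11, which encodes BIM, and 9 other family members. The 10 genes were taken by symbol from the table of gene counts. They were Bcl2l11, Mcl1, Bcl2l1, Bcl2, Bmf, Bbc3, Pmaip1, Bik, Bad and Bax, out of 52636 gene models in all. A filter on low counts kept 8 of the 10 and 12215 of all models. Bcl2 and Bik were left out by it, and their counts are given without a test.

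The cells were mouse embryonic stem cells of the CRAFR26 line, which carries a c-RAF kinase construct that 4-hydroxytamoxifen (4OHT) switches on, so that ERK is activated without a growth factor. RNA-seq of total RNA without its ribosomal part gave 16 libraries in 4 groups of 4, with 2 replicates from each of 2 clones, clone 4 and clone 8. Every group, the 0h controls included, came from cells grown with the GSK3 inhibitor Chir and LIF, moved for 48 h from the MEK inhibitor PD03 to 250 nM of the FGF receptor inhibitor PD17. The 0h group was taken before induction, the 2h and 4h groups after 2 h and 4 h in 250 nM 4OHT, and the rev group after 4 h of induction followed by 2 h with a MEK inhibitor. Whether PD17 and 4OHT stayed in the medium during those last hours is not stated. The comparisons ask which members moved with ERK activation and which moved back when MEK was blocked. No group received the vehicle of 4OHT or 6 h of culture without the MEK inhibitor, so 4OHT and ERK, and MEK inhibition and time, cannot be told apart. The 2 clones are derivatives of 1 line, the labels do not say what drives the construct, and nothing says that the 2 replicates of a clone were separate cultures, so p-values measure the spread between these libraries, which may be partly technical.

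BCL-2 proteins meet at the outer mitochondrial membrane. Guardians such as MCL-1, BCL-XL and BCL-2 hold the pore former BAX in check, and the BH3-only proteins BIM, BMF, PUMA, NOXA, BIK and BAD bind the guardians and free BAX. ERK is known to act on the family after transcription as well, since it phosphorylates BIM and marks it for degradation, and phosphorylation also restrains BAD, none of which a count of RNA can show.

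Library totals ran from 2172651 to 12680303 counts (median 6502783). Between 42.01% and 80.39% of a library fell on the 8 most abundant gene models. The extremes were 4h clone4_1, at 42.01%, and rev clone8_2, at 80.39%, which stood apart from the other 3 rev libraries and had 940289 counts outside those models. Values are CPM, counts scaled to library size, after correction by edgeR's TMM factors, which ranged from 0.463 to 1.47. A count of 3, used as the floor of detection, was worth 0.213 to 1.35 CPM and covers counting error only. All 8 embryonic stem cell markers had counts in every group, with a summed level of 1643 to 2442 CPM. The 6 fibroblast markers, with Postn at 0 in all libraries, summed to 3.42 to 13.0 CPM, and the 6 primitive endoderm markers to 3.26 to 7.21 CPM. The ERK target Dusp6 checked the labels, with means of 1.25 CPM before induction, 30.2 after 2 h, 55.2 after 4 h and 1.59 after MEK inhibition. The ETS factor genes Etv4 (7.79, 24.7, 49.5 and 21.5 CPM) and Etv5 (127, 178, 197 and 164 CPM) followed the same order of groups. These were bulk RNA samples, in which fewer cells of a type and less RNA per cell cannot be told apart.

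Promoter sequences were available from RefSeq (GRCm38.p6) for 8 members at 16 annotated starts, and were searched because ERK acts on transcription through ETS factors and FOXO factors are known regulators of Bcl2l11. The search took the 250 bases before each start, on both strands, for the ETS core CGGAAG (reverse complement CTTCCG) and the FOXO letters TGTTTAC (reverse complement GTAAACA), and no match of one overlapped a match of the other. The ETS core lay in front of 4 members, at 4 of the 16 starts, and in 13.6% of the 32851 promoters of the same length. The FOXO letters lay in front of 2 members, Bcl2l11 and Bbc3, at 2 of the 16 starts, and in 3.17% of all promoters. The 4 sequences with an ETS core are printed 5′ to 3′ on the strand of the gene, ending 1 base before the start, with the matched letters of either motif in capitals. They are shown because these 4 members differ in what the counts did, as given further on.
Bcl2l11, chr2:128125788-128126037, plus strand: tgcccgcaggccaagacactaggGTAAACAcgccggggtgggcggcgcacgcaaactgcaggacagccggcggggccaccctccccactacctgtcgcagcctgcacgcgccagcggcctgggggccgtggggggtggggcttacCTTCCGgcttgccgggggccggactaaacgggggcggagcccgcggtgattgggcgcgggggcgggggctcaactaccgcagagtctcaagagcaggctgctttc
Mcl1, chr3:95658471-95658720, plus strand: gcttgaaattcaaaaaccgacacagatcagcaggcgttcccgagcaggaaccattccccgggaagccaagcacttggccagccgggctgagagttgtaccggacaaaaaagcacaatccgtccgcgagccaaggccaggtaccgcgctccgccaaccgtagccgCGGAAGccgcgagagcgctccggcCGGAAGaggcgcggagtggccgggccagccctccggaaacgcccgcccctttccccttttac
Bcl2l1, chr2:152830718-152830967, minus strand: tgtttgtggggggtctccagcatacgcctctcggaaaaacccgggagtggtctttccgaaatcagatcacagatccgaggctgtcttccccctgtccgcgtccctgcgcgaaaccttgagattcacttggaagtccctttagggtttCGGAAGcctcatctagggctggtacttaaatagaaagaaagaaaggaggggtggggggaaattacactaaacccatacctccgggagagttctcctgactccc
Bad, chr19:6941611-6941860, plus strand: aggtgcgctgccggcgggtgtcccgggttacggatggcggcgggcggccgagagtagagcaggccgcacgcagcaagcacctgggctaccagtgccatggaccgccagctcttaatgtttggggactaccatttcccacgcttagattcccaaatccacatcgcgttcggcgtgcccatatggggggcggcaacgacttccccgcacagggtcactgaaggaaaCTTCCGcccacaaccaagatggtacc
In Bcl2l11 the ETS core began 105 bases and the FOXO letters 227 bases before 1 of its 2 starts. Mcl1 held 2 ETS cores, 86 and 62 bases before its start. Bcl2l1 held 1 at 103 bases, before 1 of its 3 starts, and Bad held 1 at 26 bases, before 1 of its 2 starts. The FOXO letters of Bbc3 began 167 bases before 1 of its 3 starts. These matches describe the sequence and do not mark a bound site.

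Levels of different members are comparable only per length, here CPM per kb of exon. Before induction Mcl1 was the most abundant member, at 34.2 ± 3.12 CPM per kb (SD, n = 4), and Bax was next at 19.7 ± 1.5. Their ranges did not touch, nor did the ranges of Bax and of any member under it. Bcl2l1 followed at 3.59 ± 0.326 CPM per kb, Pmaip1 at 3.51 ± 2.70, Bbc3 at 2.79 ± 0.361, Bad at 1.95 ± 0.452, Bcl2l11 at 1.34 ± 0.262 and Bmf at 0.803 ± 0.0746. Pmaip1 spread from 0.895 to 5.89 CPM per kb, so that it overlapped every member from Bcl2l1 down to Bmf. The neighbours Bbc3 and Bad overlapped, and so did Bad and Bcl2l11, whereas Bcl2l1 lay above Bbc3 and Bcl2l11 above Bmf in every library. Bik and Bcl2 were near 0, at 0.0253 ± 0.0505 and 0.0202 ± 0.0156 CPM per kb. With the length of the longest transcript in place of all exons, Bax came to 28.2, Bcl2l1 to 6.42, Bcl2l11 to 2.13 and Bad to 3.26 CPM per kb, the last level with Bbc3 at 3.27. At 4h Pmaip1 stood at 17.8 ± 5.27 CPM per kb, above Bcl2l1 at 5.39 ± 0.525, and its range overlapped that of Bax at 19.8 ± 0.906. With the longest transcript the 4h ranges were apart, with 11.6 to 24.1 CPM per kb for Pmaip1 and 26.9 to 29.7 for Bax.

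**Figure D1:**
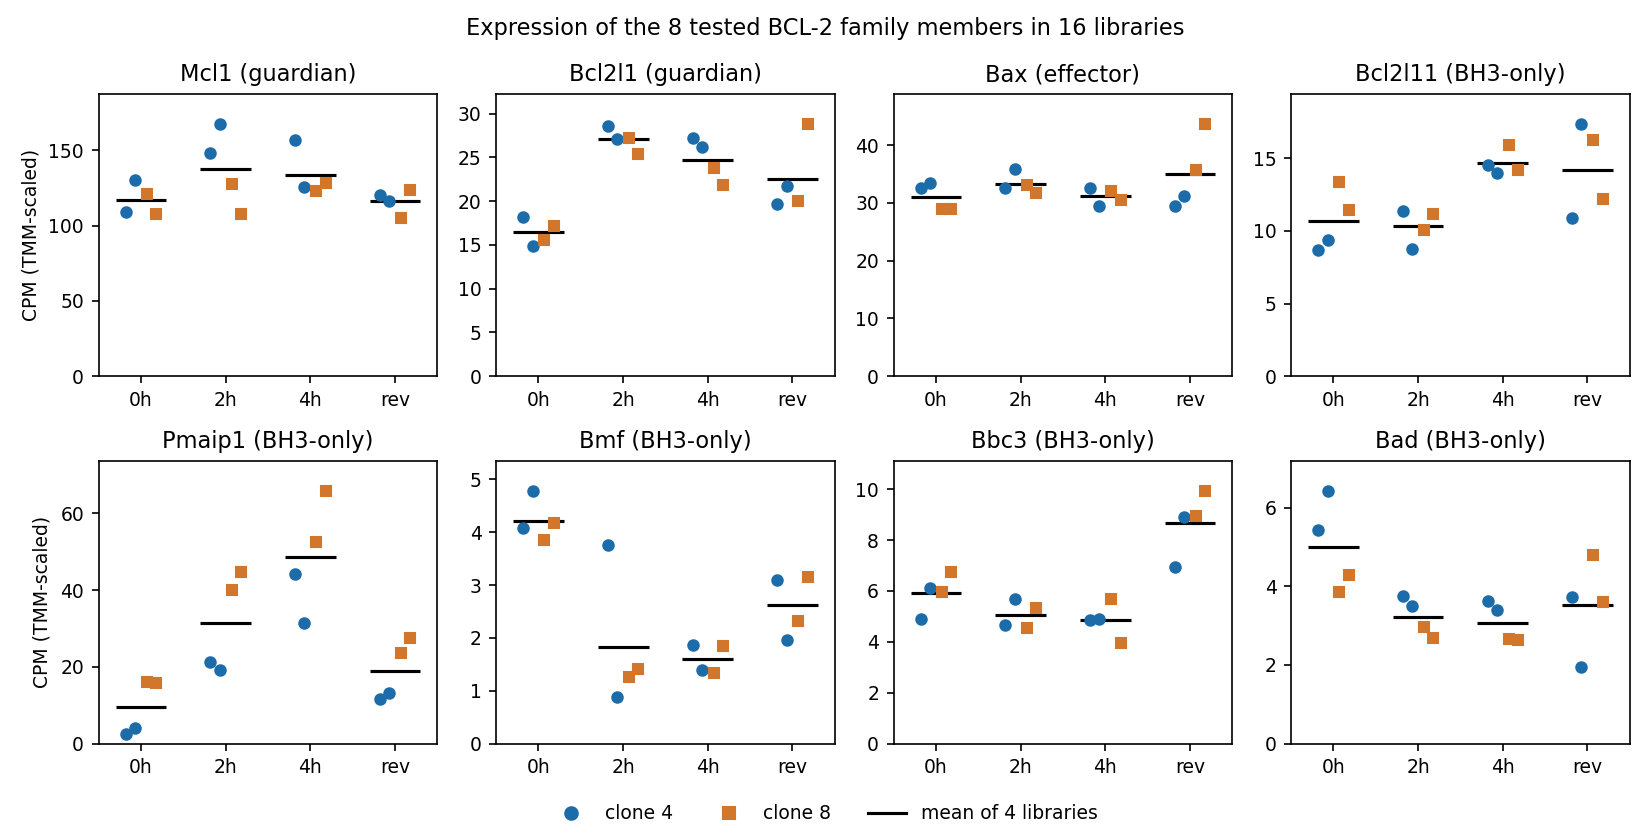
CPM of the 8 tested members in each of the 16 libraries, by group, with points for single libraries (circles for clone 4, squares for clone 8) and bars for the group mean. Pmaip1 lies higher at 2h and 4h than at 0h in both clones, and Bmf and Bad lie lower.

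Of the 8 tested members, 5 had changed after 4 h of induction. Pmaip1, Bcl2l1 and Bcl2l11 rose, Bmf and Bad fell, and Mcl1, Bbc3 and Bax did not pass. That is 3 of 8 tested members higher, beside 17.2% of all tested genes, and 2 of 8 lower, beside 16.8%. At 2h, 2 of 8 were already higher (Pmaip1 and Bcl2l1), beside 11.4% of all genes, and 2 of 8 lower (Bmf and Bad), beside 9.68%. The median log2 fold change of the 8 was 0.10 at 4h against 0h, beside -0.017 over all tested genes. No called member changed direction under any of the scalings tried. The 2h and 4h comparisons share their 0h libraries and are not independent of each other. Marker genes moved in the same comparison. At 4h against 0h, 4 of 8 stem cell markers rose and 3 fell, among them Nanog from 393.5 to 250.0 CPM (log2 -0.68, adjusted p = 4.03e-09). The summed fibroblast markers were 8.36 to 13.0 CPM at 0h and 3.42 to 6.49 at 4h, without overlap, and 1 of the 3 tested, Pdgfrb, fell from 8.05 to 2.17 CPM (-1.88, adjusted p = 3.3e-09), while Col1a1 stood at 0.519 CPM at 0h and 1.01 at 4h (1.09, adjusted p = 0.0708) and was called higher at 2h (1.57, adjusted p = 0.00603). At 2h Pdgfrb was already lower, at 3.88 CPM (-0.97, adjusted p = 7.05e-05), and 3 of 8 stem cell markers were higher and 1 lower. The part of these markers in the members' changes was not tested. Without 4h clone4_1, the library with the smallest share of the most abundant models, the 5 calls at 4h held, with Pmaip1 at a log2 fold change of 2.188 (adjusted p = 1.22e-14) and Bcl2l11 at 0.42 (adjusted p = 0.0348).

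Pmaip1 encodes NOXA, a BH3-only protein that binds MCL-1 and is known as an inducible, short-lived protein. The gene lies on chromosome 18 at 66458533 to 66465565, plus strand. At 0h the 2 libraries of clone 4 had 2.44 and 4.03 CPM and those of clone 8 had 16.1 and 15.8. At 2h the values were 21.4 and 19.3 CPM in clone 4 and 40.0 and 44.7 in clone 8, and at 4h they were 44.2 and 31.5 in clone 4 and 52.6 and 65.8 in clone 8. All 2h and 4h libraries lay above all 0h libraries, although the highest 0h value, in clone 8, came near the lowest 2h value, in clone 4. The rise was 3.18-fold at 2h (log2 1.67, SE 0.163, adjusted p = 1.28e-09) and 5.08-fold at 4h (log2 2.35, SE 0.160, adjusted p = 9.16e-14, edgeR quasi-likelihood test). It went on between 2h and 4h by a further 1.60-fold (log2 0.68, SE 0.133, adjusted p = 0.000887). The groups overlapped there, but within each clone every 4h library lay above every 2h library. The call at 4h against 2h was lost with library size alone (adjusted p = 0.057), without the clone covariate (adjusted p = 0.565) and with DESeq2 (adjusted p = 0.0675).

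As a log2 fold change, the Pmaip1 response at 4h differed between the clones, which started from different levels at 0h. In clone 4 the gene rose from a mean of 3.24 to 37.9 CPM by 4h, a log2 fold change of 3.45 (SE 0.218), and in clone 8 from 15.9 to 59.2 CPM, a log2 fold change of 1.88 (SE 0.150). The difference, clone 8 minus clone 4, was -1.57 (SE 0.295, adjusted p = 0.00782, interaction test). Pmaip1 was the 1 member of 8 with such a difference at 4h, beside 0.311% of all tested genes. At 2h against 0h the difference was -1.17 (SE 0.311, adjusted p = 0.154), and 0 of 8 members passed, beside 0.0901% of all genes, with 2 of 8, Pmaip1 and Mcl1, at an unadjusted p under 0.05 and 0 of 8 by DESeq2. Without 0h clone4_1, a library with 9 Pmaip1 counts, the 4h difference was -1.35 (adjusted p = 0.115). With the share of the 8 most abundant models as a covariate it was -1.34 (adjusted p = 0.456).

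Across all 4 groups Pmaip1 stood higher in clone 8 than in clone 4, at 35.8 against 18.5 CPM (log2 1.00, SE 0.111, adjusted p = 8.41e-09). Mcl1 stood lower in clone 8, at 118.1 against 134.4 CPM (log2 -0.19, SE 0.0627, adjusted p = 0.0226). Those were the 2 of 8 members that separated the clones, beside 29.1% of all tested genes. The Mcl1 call was lost without 0h clone4_2 (adjusted p = 0.0533), without 2h clone4_2 (adjusted p = 0.0645) or without 2h clone8_2 (adjusted p = 0.0677).

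Among the guardians of the 10 genes, Bcl2l1 rose, and Mcl1 did not pass over the 2 clones together. Bcl2l1 encodes BCL-XL and lies on chromosome 2 at 152780668 to 152831728, minus strand. In the order clone4_1, clone4_2, clone8_1 and clone8_2 it had 18.2, 14.9, 15.6 and 17.2 CPM at 0h, 28.6, 27.1, 27.2 and 25.4 at 2h, and 27.2, 26.2, 23.7 and 21.8 at 4h. Every induced library lay above every 0h library. The change was 1.65-fold at 2h (log2 0.72, SE 0.104, adjusted p = 3.18e-06) and 1.52-fold at 4h (log2 0.61, SE 0.108, adjusted p = 4.12e-05), and the step from 2h to 4h was small (log2 -0.11, SE 0.0986, adjusted p = 0.567). With library size alone both calls were lost, at adjusted p = 0.088 and 0.0534, while the size of the change stayed at log2 0.71 and 0.70.

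Mcl1, a guardian with a short-lived transcript and protein, lies on chromosome 3 at 95658788 to 95663176, plus strand. It ranged from 107.8 to 130.1 CPM at 0h, from 107.6 to 167.7 at 2h and from 123.0 to 157.0 at 4h, and the groups overlapped. Its log2 fold change was 0.20 at 2h (95% interval 0.025 to 0.38, adjusted p = 0.0963) and 0.18 at 4h (0.0033 to 0.36, adjusted p = 0.109). Without 2h clone8_2, the lowest of its group, the 2h value was 0.29 and passed (adjusted p = 0.0214). Within clone 4 the 2h change of Mcl1 was 0.38 and passed (SE 0.117, adjusted p = 0.0399), and within clone 8 it was 0.042 (SE 0.109, adjusted p = 0.834), a difference of -0.34 that did not pass (SE 0.160, adjusted p = 0.484). Bcl2, the founding guardian, had 0 to 4 counts a library, 19 in all, with counts in 9 of 16 libraries. In these cells its reads stayed near the floor in every group, and an antisense model, D630008O14Rik, overlaps its exons.

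Among the other BH3-only genes, Bcl2l11 rose at 4h, Bmf and Bad fell and Bbc3 did not pass. Bcl2l11, on chromosome 2 at 128126038 to 128162547, plus strand, encodes BIM, which binds all guardians. In the same order of libraries it had 8.69, 9.40, 13.3 and 11.4 CPM at 0h, 11.4, 8.76, 10.1 and 11.2 at 2h, and 14.5, 14.0, 15.9 and 14.2 at 4h. The 2h libraries lay among the 0h libraries, whereas all 4h libraries lay above both. At 2h the log2 fold change against 0h was -0.048 (95% interval -0.34 to 0.24, adjusted p = 0.845), and at 4h it was 0.45, or 1.37-fold (SE 0.140, adjusted p = 0.0122). Between 2h and 4h it rose by 1.41-fold (log2 0.50, SE 0.137, adjusted p = 0.0199).

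The rise of Bcl2l11 was small, and its call at 4h against 0h held in 15 of the 16 fits that left out 1 library. Without 0h clone4_2 the 4h value was 0.40 (adjusted p = 0.0509), and the call was also lost with library size alone (0.55, adjusted p = 0.192) and without the clone covariate (0.43, adjusted p = 0.052). The step from 2h to 4h held in 13 of 16 such fits and lost its call without 2h clone8_1 (0.44, adjusted p = 0.085), 4h clone4_1 (0.48, adjusted p = 0.0561) or 4h clone8_1 (0.49, adjusted p = 0.0628), and also with library size alone (0.60, adjusted p = 0.568) and without the clone covariate (0.47, adjusted p = 0.146). Within clone 4 the 4h change was 0.64 (SE 0.202, adjusted p = 0.0194) and within clone 8 it was 0.31 (SE 0.195, adjusted p = 0.278), a difference of -0.34 between the clones that did not pass (SE 0.281, adjusted p = 0.694).

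Bmf, on chromosome 2 at 118528757 to 118549687, minus strand, encodes a BH3-only protein linked to the cytoskeleton. It was a low gene. In the same order it had 4.07, 4.77, 3.86 and 4.17 CPM at 0h, 3.75, 0.876, 1.27 and 1.42 at 2h, and 1.87, 1.40, 1.33 and 1.84 at 4h. All induced libraries lay below all 0h libraries, and 2h clone4_1, at 3.75 CPM, was close to them. The 2h library clone4_2 had 2 counts, under the floor of 3. The fall was 2.21-fold at 2h (log2 -1.15, SE 0.259, adjusted p = 0.00143) and 2.77-fold at 4h (log2 -1.47, SE 0.287, adjusted p = 0.000145). At 2h it passed within clone 8 (-1.57, SE 0.331, adjusted p = 0.000967) and not within clone 4 (-0.57, SE 0.368, adjusted p = 0.403), and the difference between the clones did not pass (-0.996, SE 0.501, adjusted p = 0.508).

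Bad, on chromosome 19 at 6941861 to 6951899, plus strand, encodes a BH3-only protein that growth factor signals keep inactive by phosphorylation. It had 5.43, 6.42, 3.86 and 4.28 CPM at 0h, 3.75, 3.503, 2.96 and 2.70 at 2h, and 3.63, 3.39, 2.66 and 2.63 at 4h. The induced libraries all lay below the 0h libraries, with a narrow gap between 3.86 and 3.75 CPM. The fall was 1.55-fold at 2h (log2 -0.64, SE 0.212, adjusted p = 0.0295) and 1.59-fold at 4h (log2 -0.67, SE 0.224, adjusted p = 0.0195). Leaving out 0h clone4_2 ended both calls (adjusted p = 0.128 and 0.123), as did library size alone (adjusted p = 0.416 and 0.352). Both also ended without the clone covariate (adjusted p = 0.089 and 0.0621), the 2h call ended with no low-count filter (adjusted p = 0.0542) and DESeq2 (adjusted p = 0.0612), and the 4h call ended with the share of the 8 most abundant models as a covariate (adjusted p = 0.0757). At 2h the call also ended without 0h clone8_2 (adjusted p = 0.0517), 2h clone8_1 (adjusted p = 0.0615) or 2h clone8_2 (adjusted p = 0.0933). Exons of Bad overlap the antisense gene Gpr137, and without a stated strand setting reads from the 2 genes cannot be told apart.

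Bbc3, on chromosome 7 at 16308393 to 16318205, plus strand, encodes PUMA, a BH3-only protein known as a target of p53. It had 4.89, 6.12, 5.95 and 6.74 CPM at 0h, 4.66, 5.69, 4.56 and 5.33 at 2h, and 4.84, 4.91, 5.70 and 3.95 at 4h. Within clone 8 every 2h and 4h library lay below every 0h library, but within clone 4 they overlapped. The log2 fold changes of -0.31 at 2h (SE 0.164, adjusted p = 0.186) and -0.28 at 4h (SE 0.174, adjusted p = 0.213) did not pass. Bik, the BH3-only protein of the endoplasmic reticulum, had 0 to 2 counts a library, 9 in all, with counts in 7 of 16 libraries.

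The pore former Bax lies on chromosome 7 at 45461697 to 45466898, minus strand. It ranged from 28.9 to 33.4 CPM at 0h, from 31.7 to 35.9 at 2h and from 29.6 to 32.7 at 4h. Its log2 fold change was 0.093 at 2h (95% interval -0.096 to 0.28, adjusted p = 0.520) and 0.023 at 4h (-0.17 to 0.22, adjusted p = 0.880). Another model on the same strand, Gm45808, overlaps its exons.

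Between 2h and 4h, 2 of 8 members rose, Pmaip1 and Bcl2l11, beside 3.8% of all tested genes. By the edgeR quasi-likelihood test 0 of 8 fell, beside 3.52% of all genes, and 0 of 8 had an unadjusted p under 0.05 in that direction or fell by DESeq2.

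**Figure D2:**
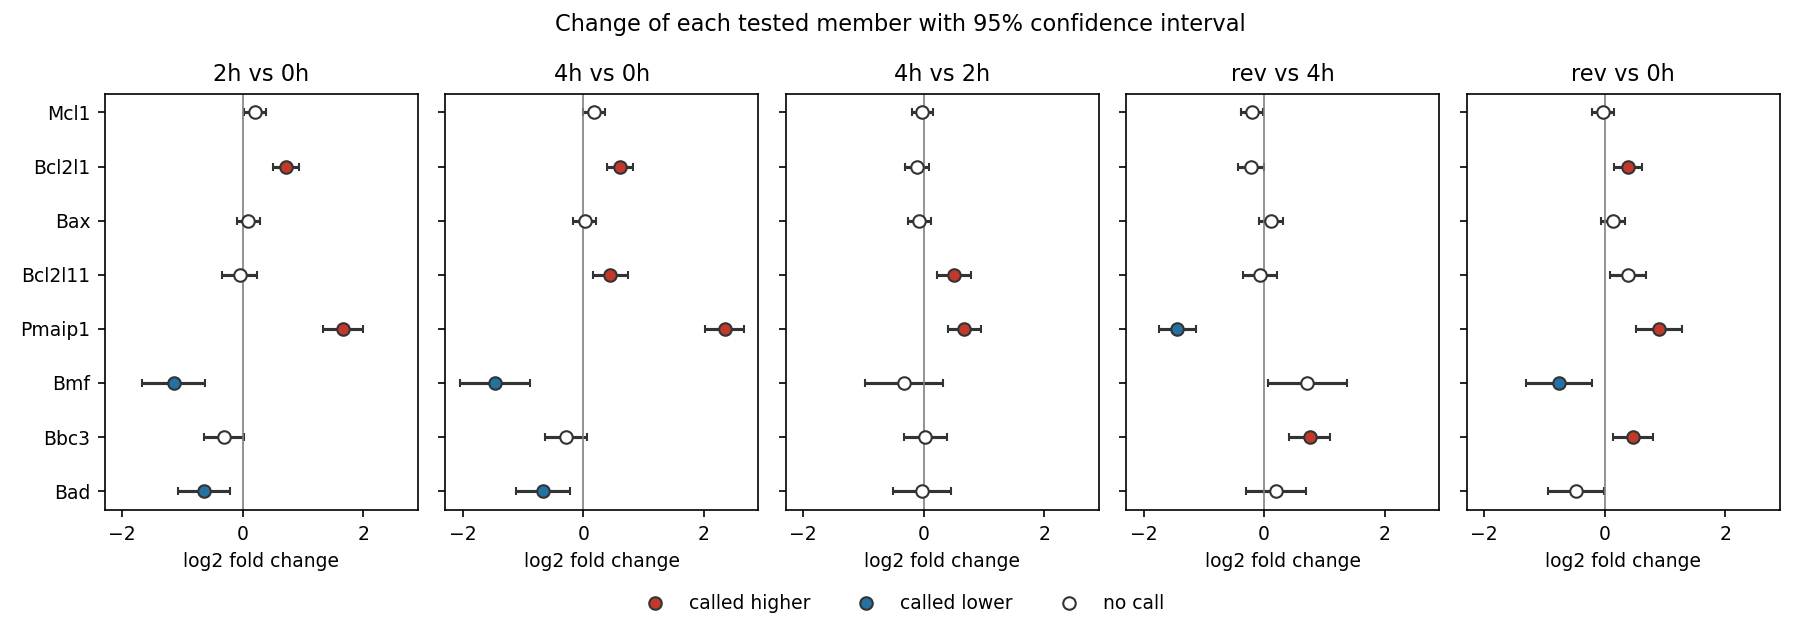
Log2 fold change of the 8 tested members in the 5 comparisons, with bars for the 95% interval from the edgeR fit and points in red for called higher, blue for called lower and white for no call. Pmaip1 runs from 1.67 and 2.35 during induction to -1.44 in rev against 4h.

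Between 4h and rev, after 2 h with the MEK inhibitor, 2 of the 8 tested members changed. Pmaip1 fell, 1 of 8 beside 8.43% of all tested genes, and Bbc3 rose, 1 of 8 beside 7.93%. In rev, Pmaip1 had 11.7 and 13.2 CPM in clone 4 and 23.7 and 27.5 in clone 8, all below the 4h libraries. The fall from 4h was 2.71-fold (log2 -1.44, SE 0.151, adjusted p = 1.04e-08), and it was -1.48 without rev clone8_2, the library that stood apart (adjusted p = 4.71e-08). The fall was -1.63 (SE 0.157) within clone 4 and -1.23 (SE 0.158) within clone 8. The difference between the clones was 0.39 (SE 0.228, adjusted p = 0.874), and 0 of 8 members passed that test, beside 0.00819% of all genes, with 0 of 8 at an unadjusted p under 0.05 and 0 of 8 by DESeq2.

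Bbc3 had 6.93, 8.90, 8.95 and 9.92 CPM in rev, in the order clone4_1, clone4_2, clone8_1 and clone8_2. Those 4 values lay above all 4h values and above all 0h values. The rise from 4h was 1.69-fold (log2 0.75, SE 0.168, adjusted p = 0.00164), and without rev clone8_2 it was 0.72 (adjusted p = 0.00425). With library size alone, under which the median of all tested genes stood at -0.41 in rev against 4h, the value was 0.35 (adjusted p = 0.332).

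The remaining members did not pass between 4h and rev, and 2 guardians, Bcl2l1 and Mcl1, passed when the library that stood apart was left out. Bmf had 3.09, 1.96, 2.32 and 3.15 CPM in rev, all above the 4h values and all below the 0h values, with a log2 change from 4h of 0.72 (SE 0.322, adjusted p = 0.128) and 0.65 without rev clone8_2 (adjusted p = 0.196). Bcl2l11 had 10.9, 17.4, 16.2 and 12.2 CPM, a spread wider than the distance between the 0h and 4h means. Its change from 4h was -0.064 (95% interval -0.35 to 0.22, adjusted p = 0.802), or -0.024 without rev clone8_2. Bcl2l1 had 19.7, 21.7, 20.1 and 28.9 CPM, with the highest value in the library that stood apart. Its change from 4h was -0.22 (SE 0.107, adjusted p = 0.157), and without that library it was -0.31 and passed (adjusted p = 0.0333). Mcl1 moved likewise, from -0.21 (adjusted p = 0.113) to -0.26 without it (adjusted p = 0.0466), with rev values of 104.9 to 124.0 CPM. With all libraries kept, Mcl1 also passed with only the 2 groups compared (-0.21, adjusted p = 0.0454). It passed with library size alone too (-0.66, adjusted p = 0.0398), where the median of all tested genes was -0.41. The low gene Bad had 3.73, 1.96, 4.81 and 3.61 CPM, with values on both sides of the 4h range, and its change of 0.19 did not pass (adjusted p = 0.651). Bax ranged from 29.5 to 43.7 CPM, the highest again in rev clone8_2, with a change of 0.11 (adjusted p = 0.487) that was 0.031 without that library. That library also had the lowest share of mitochondrial messenger RNA, 0.62% of counts, and its part in these values was tested only by leaving it out.

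Set against 0h, the rev libraries had 3 of 8 members higher, beside 12.4% of all tested genes, and 1 of 8 lower, beside 9.86%. Pmaip1 was still 1.87-fold above 0h (log2 0.91, SE 0.189, adjusted p = 0.000657). Within each clone every rev library lay above every 0h library, although the groups overlapped. The Pmaip1 call was lost with library size alone (adjusted p = 0.0794) and without the clone covariate (adjusted p = 0.255). Bcl2l1 was 1.31-fold higher (log2 0.39, SE 0.114, adjusted p = 0.0138), but 0.28 without rev clone8_2 (adjusted p = 0.0693) and 0.32 without 0h clone4_2 (adjusted p = 0.0703), and with library size alone it was 0.072 (adjusted p = 0.863). Bbc3 was 1.38-fold higher (log2 0.47, SE 0.164, adjusted p = 0.0362) and Bmf 1.68-fold lower (log2 -0.75, SE 0.270, adjusted p = 0.0425). Each of these last calls was lost in 6 of the 16 fits that left out 1 library, with adjusted p up to 0.0966 for Bbc3 and up to 0.132 for Bmf. The Bbc3 call was kept under 5 of the 10 other settings, and was lost with library size alone (0.18, adjusted p = 0.687), no low-count filter (adjusted p = 0.121), no clone covariate (adjusted p = 0.058), the share of the 8 most abundant models as a covariate (adjusted p = 0.051) and DESeq2 (adjusted p = 0.0734). The Bmf call was lost without the clone covariate (adjusted p = 0.159) and with DESeq2 (adjusted p = 0.0821). Without rev clone8_2, Pmaip1 was at 0.86 (adjusted p = 0.00278), Bbc3 at 0.43 (adjusted p = 0.0818) and Bmf at -0.84 (adjusted p = 0.0346). Bcl2l11 was at 0.39 (SE 0.146, adjusted p = 0.0529) and passed without that library (0.42, adjusted p = 0.0442), without rev clone4_1 (0.53, adjusted p = 0.0154), without 0h clone8_1 (0.47, adjusted p = 0.034) and with the share of the 8 most abundant models as a covariate (0.41, adjusted p = 0.049). Bad was at -0.48 (SE 0.227, adjusted p = 0.128), with a range of -0.79 to -0.28 when 1 library was left out, and it passed without rev clone8_1 (-0.79, adjusted p = 0.025). Markers moved here too, and their part was not tested. Between 4h and rev 3 of 8 stem cell markers rose, beside 7.93% of all tested genes, among them Nanog (0.66, adjusted p = 2.45e-08). In the same comparison 3 fell, beside 8.43%, among them Pou5f1 (-0.35, adjusted p = 0.00118). In rev against 0h the fibroblast marker Pdgfrb was lower (-1.66, adjusted p = 2.69e-07) and Col1a1 higher (1.93, adjusted p = 0.00136), with summed fibroblast markers of 6.08 to 9.47 CPM in rev.

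Ratios of 2 members inside a library do not depend on how libraries are scaled, and are given as descriptions with no test. The log2 ratio of Mcl1 to Bcl2l11 counts was 3.45 ± 0.296 at 0h (SD, n = 4), then 3.71 ± 0.394 at 2h, 3.17 ± 0.200 at 4h, with 3.05 ± 0.400 for the rev libraries, and the groups overlapped. The ratio of Bcl2l1 to Bcl2l11 was 0.63 ± 0.340 at 0h, 1.39 ± 0.178 at 2h, 0.75 ± 0.178 at 4h, with 0.68 ± 0.449 for the rev libraries. At 2h it lay between 1.19 and 1.61 and at 0h between 0.22 and 1.05, with no overlap, and at 4h it lay within the 0h range. Pmaip1 to Mcl1 went from -4.02 ± 1.37 at 0h to -2.21 ± 0.880 at 2h and -1.502 ± 0.490 at 4h, and stood at -2.70 ± 0.635 in rev. Bmf to Bcl2l11 went from -1.31 ± 0.368 at 0h to -2.63 ± 0.696 at 2h and -3.14 ± 0.299 at 4h. Within the BH3-only group, Pmaip1 thus gained on Bcl2l11 and Bmf lost to it, without overlap between 0h and 4h for either ratio.

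**Figure D3:**
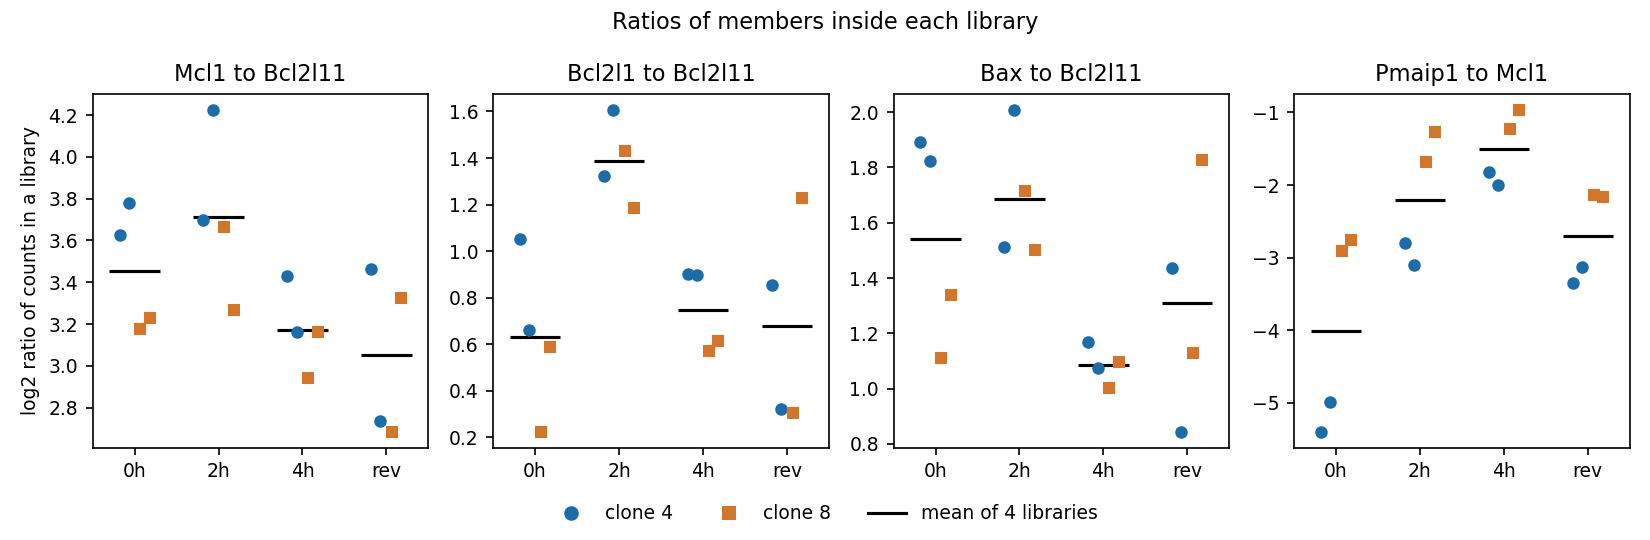
Log2 ratios of member counts within each library, by group, with circles for clone 4, squares for clone 8 and bars for the group mean. Bcl2l1 to Bcl2l11 is highest at 2h, where it averages 1.39, and Pmaip1 to Mcl1 rises from -4.02 at 0h to -1.502 at 4h.

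Around the members, 62 other genes, of the apoptosis pathway or known to regulate the members, were looked at in 5 lists. Of the 62, 54 passed the filter on low counts. At 4h against 0h, 15 of the 54 rose and 12 fell, beside 17.2% and 16.8% of all tested genes, and between 4h and rev 4 rose and 4 fell, beside 7.93% and 8.43%. The list of 21 regulators held 10 of the 15 that rose at 4h and 4 of the 12 that fell. The counts at 4h in each list that follows stand beside those same shares of 17.2% and 16.8%. The median log2 fold change of the 54 at 4h was -0.0016, beside -0.017 over all tested genes. The medians of single lists differed, from -0.25 for the inhibitors of apoptosis to 0.26 for the death receptor genes. Of 9 other BCL-2 family genes tested, 2 rose and 2 fell at 4h, beside those shares. Bid, a BH3-only protein cut by caspase 8, rose from 22.7 to 33.3 CPM (log2 0.50, adjusted p = 0.000864) and fell again in rev (-0.39, adjusted p = 0.0168). Bnip3l, a mitophagy receptor, rose by 0.32 (adjusted p = 0.0164) and fell by 0.46 in rev (adjusted p = 0.00276). Bcl2l14 fell from 14.5 to 8.07 CPM (-0.80, adjusted p = 6.41e-05). The guardian gene Bcl2l2, which encodes BCL-W, lay under the 5 CPM asked of a named gene and is given after its values were seen. It fell from 7.70 CPM at 0h to 4.16 at 2h (-0.81, adjusted p = 0.00225) and 3.54 at 4h (-1.09, adjusted p = 0.00011), and was still lower in rev than at 0h (-0.68, adjusted p = 0.0151). Its exons overlap Gm20521, a model on the same strand. The exons of Bid and Bcl2l14 overlap antisense models.

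Downstream of the pore, 2 of 14 apoptosome and caspase genes fell at 4h, a share no higher than the 16.8% of all tested genes, and the other 12 did not pass. Apaf1, the scaffold of the apoptosome, went from 36.02 to 24.5 CPM (log2 -0.57, adjusted p = 2.66e-05), and Casp9, the initiator caspase it recruits, from 15.7 to 11.9 (-0.39, adjusted p = 0.0175). Neither moved back in rev past the threshold, with log2 changes from 4h of 0.11 (adjusted p = 0.508) and 0.22 (adjusted p = 0.281). Of the 5 inhibitors of apoptosis, 1 rose and 3 fell at 4h, beside 17.2% and 16.8% of all genes, among them Birc2 (-0.40, adjusted p = 0.0222) and Birc5, which encodes survivin (-0.25, adjusted p = 0.0264). Birc5 rose again in rev (0.29, adjusted p = 0.0203), and Xiap, which blocks caspases directly, fell from 58.4 to 41.9 CPM (-0.46, adjusted p = 0.000866). Of 5 death receptor genes tested, 2 rose and 1 fell at 4h, beside the same shares. The receptors Tnfrsf1a (0.83, adjusted p = 0.00114) and Tnfrsf10b (0.43, adjusted p = 0.00229) were those that rose.

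Of 21 genes known to regulate the members, 10 rose, beside 17.2% of all tested genes, and 4 fell at 4h, beside 16.8%. Foxo3, a transcription factor known to drive Bcl2l11 and Bbc3 when growth signals are low, fell from 93.1 CPM to 64.9 after 2 h and 52.9 after 4 h of induction and stood at 74.0 after MEK inhibition. Its log2 change was -0.83 at 4h (SE 0.0824, adjusted p = 9.53e-10) and 0.49 from 4h to rev (SE 0.0851, adjusted p = 7.84e-05), with no overlap of the groups in either comparison. Another FOXO gene, Foxo1, named after its values were seen, went the other way, from 13.2 to 18.9 CPM at 4h (0.54, adjusted p = 5e-04), and its exons overlap an antisense model. Bag3, a co-chaperone that binds BCL-2, rose and then fell, with 0.73 at 4h (adjusted p = 2.74e-07) and -0.62 from 4h to rev (adjusted p = 1.84e-05). Btrc, a ubiquitin ligase subunit known to take part in BIM degradation, fell by 0.66 at 4h (adjusted p = 3.25e-06).

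**Figure D4:**
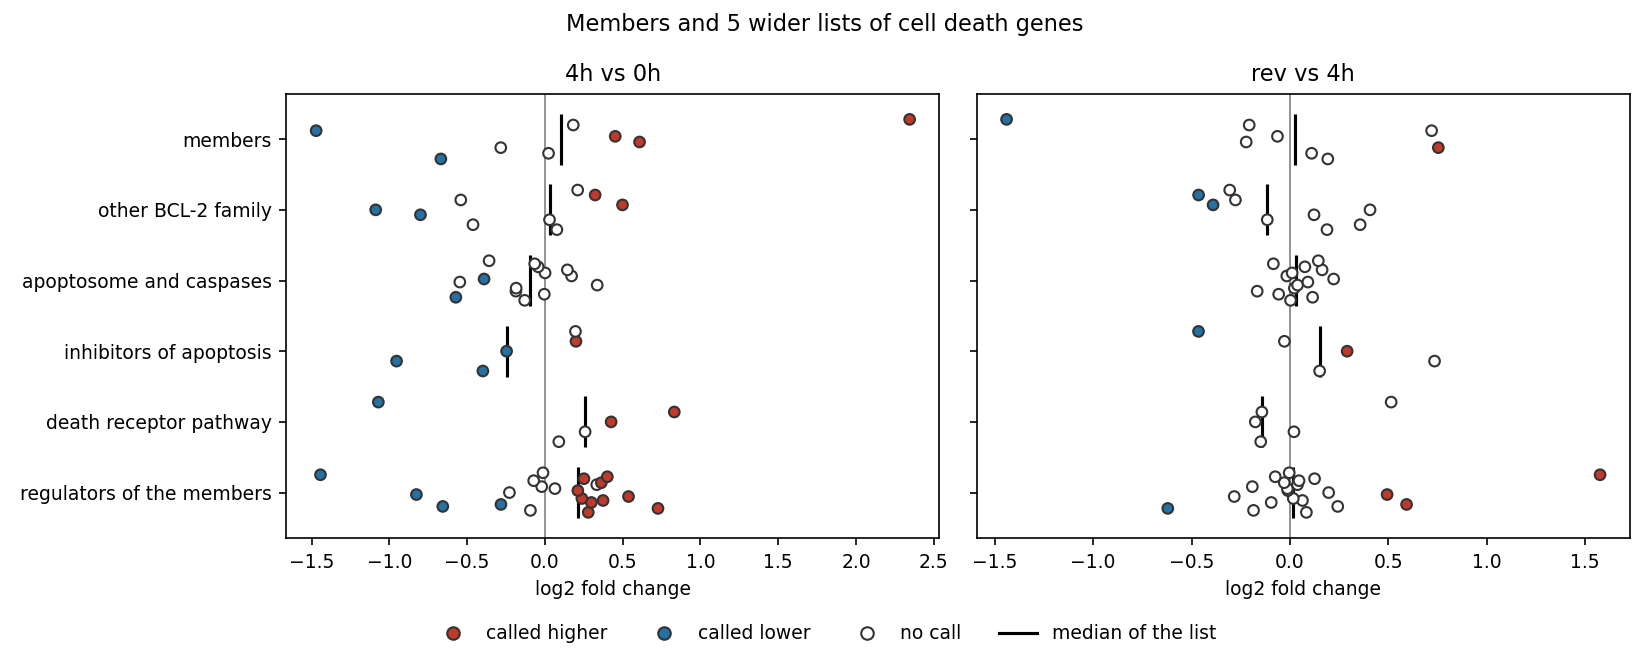
Log2 fold change (x axis) of the 8 tested members and the genes of the 5 wider lists (rows), in the 4h vs 0h and the rev vs 4h comparison, with 1 point per tested gene, red for called higher, blue for called lower, white for no call and a vertical bar for the median of the list. At 4h vs 0h the list medians ran from -0.25 (inhibitors of apoptosis) to 0.26 (death receptor pathway), and Pmaip1 stood at 2.35 in the members' row. In rev vs 4h they ran from -0.14 (death receptor pathway) to 0.15 (inhibitors of apoptosis).

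The genes whose levels most resembled a member across the 16 libraries were found by Pearson's r of log2 CPM, as a description in which all points share the scaling and the depth of their library. For Bcl2l11 they were Bnc2 (r = 0.785), Lamb1 (0.774) and Fam117b (0.773), and for Mcl1 they were Sec11a (0.946), Gpbp1 (0.882) and Prmt1 (0.878). For Pmaip1, looked at after its values were seen, they were Arcn1 (0.951), Adam23 (0.945) and Rrn3 (0.943).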

How the data were processed

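Ribosomal RNA was removed from total RNA and 16 libraries, 4 a group, were sequenced. The deposited values were raw counts per gene model, whole numbers in 1 table, and 0 columns were left unmapped. Reads were handled with bcl2fastq 2.19.1 and STAR 2.5.3a on mm10, per the submitters' processing notes. The counting tool, its annotation and its strand setting are not given in the sources used here. Of 52636 identifiers, 52489 matched GENCODE M21 (GRCm38), which gave symbols, positions and exon lengths, and 147 did not match. The sample titles gave each library's group, clone and replicate number.

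The analysis used edgeR 4.0.16 in R 4.3.3. After filterByExpr (by group) 12215 models remained, and TMM gave the scaling. A quasi-likelihood fit of all 16 libraries had terms for group and clone, with two-sided tests and Benjamini-Hochberg adjustment over the 12215 at 0.05. Differences between clones came from a fit of the 8 combinations of group and clone. Each standard error follows from the size of the change and its F statistic. A prior count of 2 was used for log2 CPM and 0.5 for ratios. All 10 members were named, and of each wider list up to 3 genes past the threshold, at 5 CPM or more on average, with the largest change at 4h against 0h or rev against 4h. The members and the lists were chosen with earlier results of these data known. The fit was also run on counts simulated without a clone effect and, planted changes aside, with the same mix of gene models in every library. That run therefore does not check how the fit handles clones or the varying share of the most abundant models.

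Alternatives were RLE factors, library size alone, removal of the 8 most abundant models, no low-count filter, a filter at 1 CPM on average, no clone covariate, a replicate block, a covariate for the percent of counts in those 8 models, only the 2 groups compared, DESeq2 1.42.0 and leaving out each library. Library totals from 2172651 to 12680303 set the precision, and the floor of 3 counts covers counting error only. Sequences of proteins, and promoters of Pmaip1 and Bik, were not used here.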

Additional observations from a re-analysis of the deposited data

Results flagged for a closer look

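Mcl1 at 4h stood at 157 CPM in clone4_1, while the other 3 libraries of the group had 123 to 128.1 CPM. That library lay far from the rest of its group by Dixon's 95% criterion, and it was the 1 such value among 32 groups of a member's values, where chance gives about 1 in 20. The same library had the smallest share of counts in the 8 most abundant models, 42.01%, and the largest TMM factor, 1.47. The part of those in the Mcl1 value was not tested. Without it the Mcl1 change at 4h against 0h was 0.12 (adjusted p = 0.36, edgeR), beside 0.18 with it.

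The Pmaip1 change at 4h against 0h differed between the clones by -1.573 on the log2 scale, clone 8 minus clone 4, by the interaction test (adjusted p = 0.00782). The clones started from different levels, 3.24 CPM in clone 4 and 15.9 CPM in clone 8, and the part of that starting level was not tested. Both libraries of each clone moved in the same direction. The difference was -1.30 without 4h clone4_1 (adjusted p = 0.0414), and the call was lost without 0h clone4_1 (-1.35, adjusted p = 0.115) and with the share of the 8 most abundant models as a covariate (-1.34, adjusted p = 0.456).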

How the results depend on the processing

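Of 170 refits of called member values under the 10 other settings, 143 kept the call, 27 lost it and 0 changed direction, and with each library left out 249 of 272 kept it and 23 lost it. The cause of each loss was not tested. Library size alone moved the median of all tested genes to 0.10 in 4h vs 2h, -0.41 in rev vs 4h and -0.32 in rev vs 0h.

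With library size alone, members called higher and lower were 1 and 1 at 2h vs 0h, 1 and 1 at 4h vs 0h, 0 higher at 4h vs 2h, 0 and 2 in rev vs 4h, and 0 higher in rev vs 0h. All genes called were then 205 and 135, 557 and 328, 88 and 12, 57 and 1685, and 106 higher, in the same order of comparisons. Without the clone covariate, members lower were 1 at 2h and 1 at 4h vs 0h, members higher were 0 at 4h vs 2h and 1 in rev vs 0h, and 0 were lower in rev vs 0h. All genes were then 747 and 462 at 2h vs 0h, 1323 lower at 4h vs 0h, 129 and 90 at 4h vs 2h, 418 and 463 in rev vs 4h, and 876 and 576 in rev vs 0h. With DESeq2, 1 member was lower at 2h vs 0h, 1 higher at 4h vs 2h and 0 lower in rev vs 0h. With no low-count filter 1 member was lower at 2h vs 0h. With only the 2 groups compared 2 were lower in rev vs 4h. With the 8-model covariate, their share of counts, 1 member was lower at 4h vs 0h, and in rev vs 4h 577 genes were higher and 652 lower.

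Genes whose response differed between clones were 11 at 2h vs 0h, and 3 with library size alone, 68 with no low-count filter, 6 with only the 2 groups compared and 2 with DESeq2. At 4h vs 0h they were 38, and 127 with no low-count filter, 1 with that covariate (0 members) and 19 with DESeq2. In rev vs 4h there was 1, and 16 with no low-count filter and 0 with library size alone or the covariate. Genes that differed between clones were 3555, and 2125 with library size alone.

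Values that changed sign were all of members without a call. With library size alone these were, at 4h vs 2h, Mcl1 (0.097), Bad (0.088) and Bax (0.028), in rev vs 4h Bad (-0.20) and Bax (-0.32), and in rev vs 0h Bax (-0.18). With the covariate they were Mcl1 (0.0052) and Bad (0.017) at 4h vs 2h and Bax (-0.029) in rev vs 4h. Bbc3 at 4h vs 2h was -0.013 with no low-count filter, -0.023 without the clone covariate and -0.012 with only the 2 groups compared, and Bad without the clone covariate was 0.013.

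With each library left out, members called lower were 1 to 2 at 2h and at 4h vs 0h, members higher 1 to 2 at 4h vs 2h and 1 to 4 in rev vs 0h, members lower 1 to 3 in rev vs 4h and 0 to 1 in rev vs 0h, members with a clone difference at 4h 0 to 1, and members that differed between clones 1 to 2. Over all genes, 740 to 1280 were lower at 2h vs 0h, 301 to 510 higher and 261 to 463 lower at 4h vs 2h, and 645 to 1025 higher in rev vs 4h. Clone differences in response were 1 to 35 genes at 2h vs 0h, 5 to 105 at 4h vs 0h and 0 to 7 in rev vs 4h. Uncalled values crossed 0 for Bcl2l11 (-0.13 to 0.043 at 2h vs 0h, -0.20 to 0.089 in rev vs 4h), Bax (-0.019 to 0.081 at 4h vs 0h), Mcl1 (-0.11 to 0.043 at 4h vs 2h, -0.092 to 0.019 in rev vs 0h), Bmf (-0.46 to 0.25), Bbc3 (-0.044 to 0.11) and Bad (-0.085 to 0.027) at 4h vs 2h, and Bad in rev vs 4h (-0.087 to 0.41).

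Same-numbered libraries did not all deviate together: over 12 pairs and 6108 genes the mean correlation was 0.013 (-0.32 to 0.21), and 4 pairs were above 0.1, 3 of them in clone 8 between 0h, 2h and 4h (0.13 to 0.21). The other 8 pairs were not, and no label says that same-numbered libraries were handled together, so the numbers were not taken as a pairing. The replicate block kept every member call in the 5 comparisons of groups. Pmaip1 at 4h vs 0h was then at 2.35 (adjusted p = 3.84e-13, edgeR) and Bcl2l11 at 0.45 (adjusted p = 0.0159). It gave 0 genes with a clone difference in rev vs 4h. Levels in clone 8 against clone 4 were not refitted with the block. With the longest transcript, 21 of 32 levels per kb moved by more than 1 SD, and with a prior count of 1 none of 32 ratios did. Depth limits Bcl2, Bik and Bmf, whose counts lay at or near the floor in some libraries.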
